A study of Mus musculus with 4 samples.

Results

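Blood vessels of the kidney medulla were followed through 46 genes, chosen by name with earlier results of these data known. The genes encode surface and junction proteins of endothelial cells, their receptors and transcription factors, the selectins, and the ligands that act on vessels. All 46 were found among the 27179 genes of the deposited table, and all 46 reached the mean of 10 normalized reads required for testing. The 2 libraries labelled Actr3 KO came from mice of genotype Actr3-fl/fl*Cdh16-Cre, and the 2 libraries labelled Actr3 WT from wild type control mice. All 4 animals were of strain C57BL/6 mixed and were taken at postnatal day 14. Cre was driven by the Cdh16 promoter, which is active in tubule epithelium (Cdh16 is a cadherin of renal tubules) and is not an endothelial promoter. Whether the controls carried floxed alleles or Cre is not given in the sources used here. The comparison asked how the RNA of the medulla differed between the genotypes, and it is read here for the vessels only.

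Endothelial cells line all vessels and are held together by junction proteins such as VE-cadherin. Their growth and survival depend on VEGF ligands, which act through receptor tyrosine kinases, and their stability on angiopoietin-1, which activates the receptor TIE2 and which angiopoietin-2 can oppose. In the medulla the vasa recta and their capillary plexus carry blood past the thick and thin limbs and the collecting ducts, and endothelin-1, apelin and nitric oxide act on these vessels and on the tubules.

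The libraries held 36482238 to 40784436 reads and 18972 to 19249 detected genes. Values are normalized read counts, and differences are given as log2 of KO-labelled over WT-labelled on the scale log2(value + 1), tested with limma and called at an adjusted p under 0.05 over the 16253 genes tested. Actr3, which encodes the Arp3 subunit of the actin-nucleating Arp2/3 complex, had 12587 and 12480 normalized reads in KO-labelled libraries, against 8065 and 7275 in the WT-labelled libraries. It was higher where deletion was labelled (log2 difference 0.71, SE 0.082, limma adjusted p = 0.000494). A count over the whole gene cannot show the loss of an exon, so it does not check the deletion, and every direction below rests on the labels. Changes were common across the table, with 24.9% of tested genes called lower and 26.3% called higher. The limma counts of every gene list below are to be read beside these shares.

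Most of the vessel genes were lower in the KO-labelled medulla. Of the 46, 39 were called lower, against the 24.9% of all tested genes, and 4 were called higher, against 26.3%. edgeR called 40 lower and 4 higher, against 25.3% and 25.8% of all tested genes, and DESeq2 called 39 and 4, against 23.5% and 24.6%. With limma, the 4 were Selp, Edn1, Mmrn1 and Vegfc. Ramp2, Fli1 and Sele were not called. The median log2 difference was -1.08 over the 46 genes and 0.0029 over all tested genes. A fall with a log2 size of at least 1 was called for 27 of the 46 and for 9.45% of all tested genes, and a rise of that size for 3 of the 46 and 10.7% of all tested genes. Both KO-labelled values lay below both WT-labelled values for 41 of the 46, where 38.7% of all tested genes had that order, and above them for 5, where 39.8% did. Scaled to the same total in each library (CPM), the 46 genes together held 2308 ± 14.7 in the KO-labelled libraries and 5743 ± 188 in the WT-labelled libraries (SD, n = 2 each), 2.49-fold less. The values are scaled to the reads of each library and do not give amounts per cell. In RNA from whole tissue, fewer endothelial cells, less of these RNAs per cell and more RNA from other cells cannot be told apart.

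**Figure D1:**
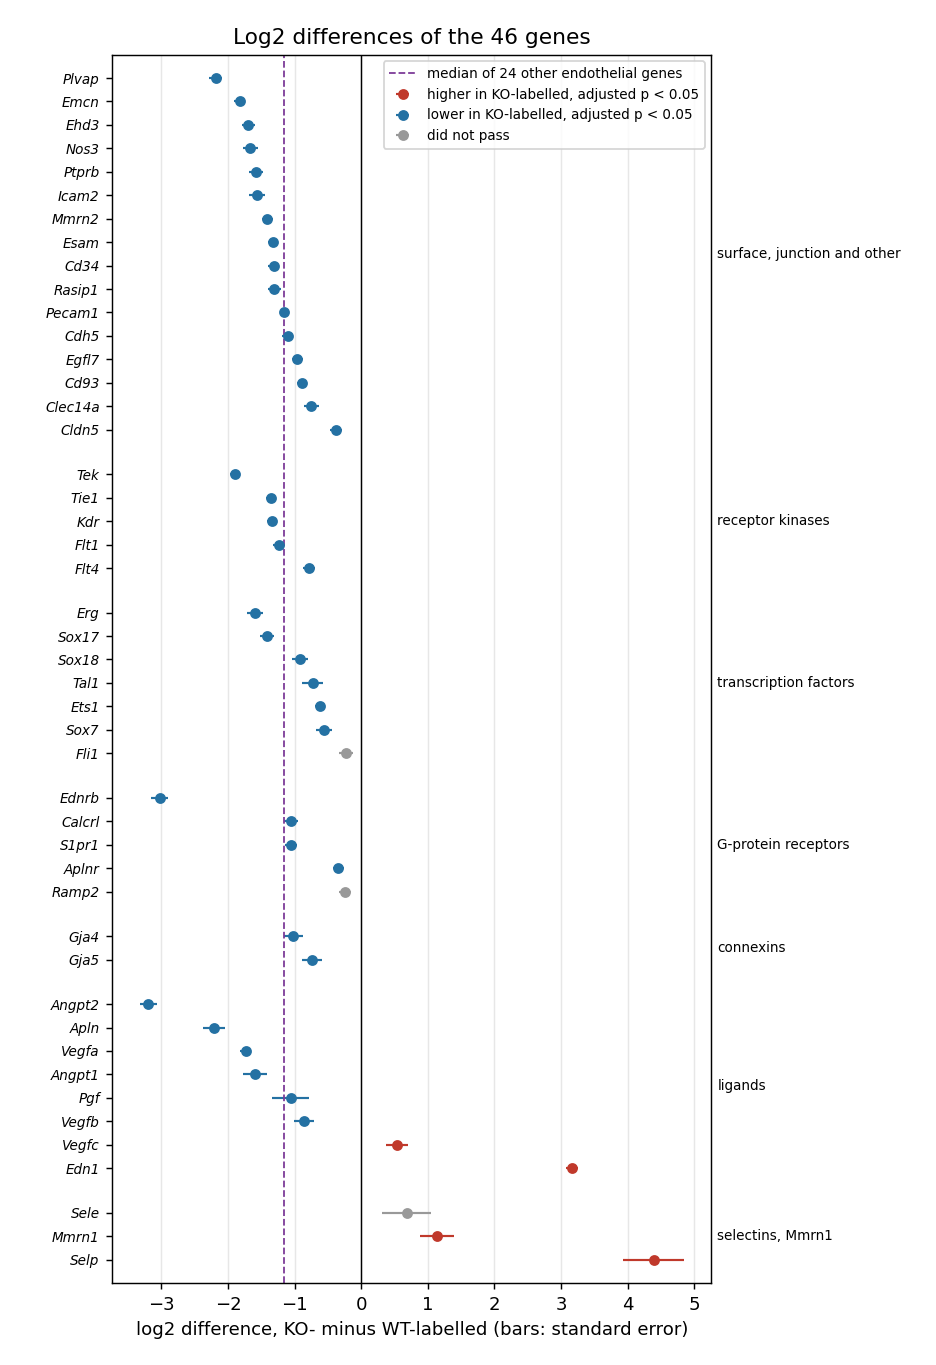
Log2 difference of the KO-labelled over the WT-labelled libraries (horizontal axis, on the log2(value + 1) scale) for each of the 46 genes, grouped by role; bars are the standard error of limma's fit, grey points did not pass the threshold and the dashed line is the median of 24 other endothelial genes, -1.15. Values run from -3.19 for Angpt2 to 4.39 for Selp, and all 16 surface and junction genes lie below 0.

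The 16 surface and junction genes were all called lower, with log2 differences of -2.18 to -0.38 and a median of -1.32. Plvap, which forms the diaphragms of fenestrated capillaries, had 6523 and 5639 normalized reads in KO-labelled libraries, against 26654 and 28431 in the WT-labelled libraries. The groups were far apart, with the KO-labelled mean at 22.1% of the WT-labelled mean and a limma log2 difference of -2.18 (SE 0.0955, adjusted p = 1.27e-05). Emcn, the sialomucin endomucin of capillaries and veins, had 2508 and 2715 in KO-labelled libraries, against 8998 and 9470 in the WT-labelled libraries. The groups were again well apart, with a log2 difference of -1.82 (limma adjusted p = 1.27e-05). The general endothelial markers were lower by smaller amounts. Pecam1, the adhesion molecule CD31, had 4750 and 4635 normalized reads in KO-labelled libraries, against 10563 and 10288 in the WT-labelled libraries (log2 difference -1.15, limma adjusted p = 4.1e-05). Cdh5, which encodes VE-cadherin, had 3653 and 3358 in KO-labelled libraries, against 7797 and 7267 in the WT-labelled libraries (log2 difference -1.10, limma adjusted p = 8.16e-05). Cldn5, the tight junction protein claudin-5, showed the smallest difference of the 16. It had 1236 and 1230 in the KO-labelled libraries and 1637 and 1579 in the WT-labelled libraries, which do not overlap (log2 difference -0.38, limma adjusted p = 0.0102).

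Between these extremes, Ehd3, a membrane-trafficking protein abundant in kidney endothelium, Nos3, the endothelial nitric oxide synthase, Ptprb, the phosphatase VE-PTP that acts on TIE2, and Icam2 had log2 differences of -1.69, -1.66, -1.58 and -1.56. Mmrn2, a matrix protein that binds Cd93 and Clec14a, differed by -1.41, and its partners Cd93 and Clec14a by -0.89 and -0.75. Esam, Cd34 and Rasip1, which act in cell junctions, on the cell surface and in the forming of the vessel lumen, differed by -1.32, -1.31 and -1.30, and Egfl7, a protein secreted by endothelial cells, by -0.96. Exons of Nos3, Cd34, Rasip1 and Egfl7 overlap those of other annotated genes, as do those of Angpt1, Gja5, Edn1 and Selp. The strand setting of the counting is not given in the sources used here, so reads of the overlapping genes can be shared in these 8 of the 46.

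**Figure D2:**
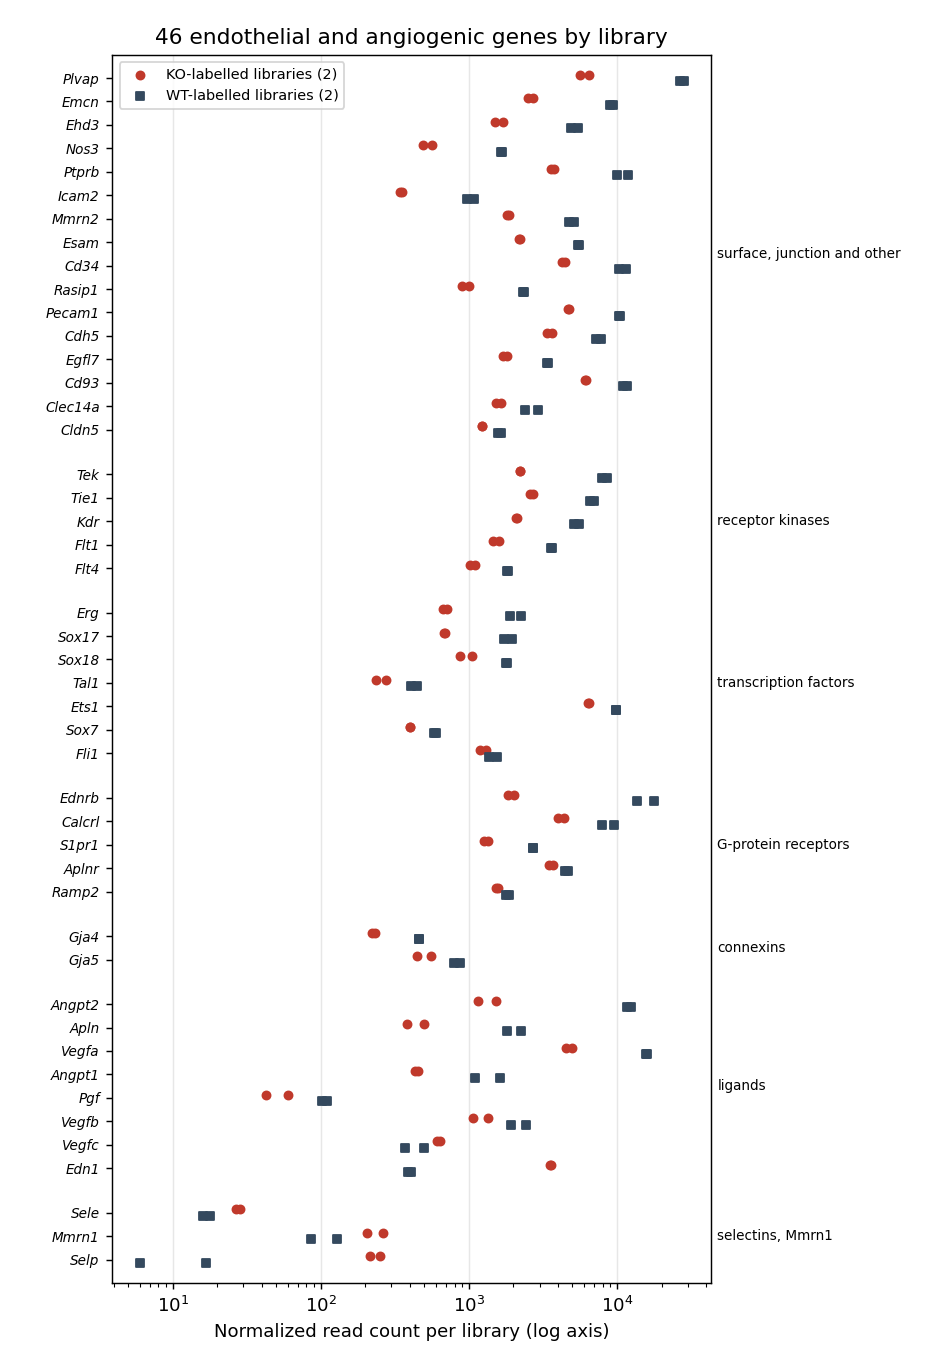
Normalized read counts (log axis) of the 46 genes in each library, with circles for KO-labelled libraries and squares for WT-labelled libraries. The points of the KO-labelled libraries lie below those of the WT-labelled libraries for 41 genes and above them for Edn1, Selp, Sele, Mmrn1 and Vegfc.

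All 5 receptor tyrosine kinases were called lower, with a median log2 difference of -1.34. Tek, which encodes TIE2, the receptor for the angiopoietins, had 2218 and 2231 normalized reads in KO-labelled libraries, against 8606 and 7982 in the WT-labelled libraries. It stood 3.73-fold lower, and limma gave a log2 difference of -1.90 (SE 0.0778, adjusted p = 1.07e-05). Its relative Tie1, a receptor that modulates TIE2, differed by -1.36. Among the VEGF receptors, Kdr, the main signalling receptor for VEGF-A, had 2092 and 2117 in KO-labelled libraries, against 5118 and 5519 in the WT-labelled libraries (log2 difference -1.34, limma adjusted p = 3.35e-05). Flt1, which binds VEGF-A, VEGF-B and PlGF and acts largely as a sink, differed by -1.24. Flt4, the receptor for VEGF-C, had 1015 and 1107 in the KO-labelled libraries and 1832 and 1821 in the WT-labelled libraries. It showed the smallest fall of the 5, with a log2 difference of -0.78 (limma adjusted p = 0.000571).

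The G-protein-coupled receptors and their partner Ramp2 spanned the widest range of the receptor groups. Ednrb, the endothelin receptor B, which clears endothelin-1 and drives nitric oxide release in endothelium and is also made by collecting duct cells, had 2005 and 1837 normalized reads in KO-labelled libraries, against 17860 and 13640 in the WT-labelled libraries. The KO-labelled mean was 12.2% of the WT-labelled mean, an 8.20-fold difference (log2 difference -3.02, SE 0.131, limma adjusted p = 1.24e-05). The gene lies on chromosome 14, 103814615 to 103844508 (RefSeq, GRCm38). S1pr1, the sphingosine-1-phosphate receptor that steadies the endothelial barrier, and Calcrl, the receptor for adrenomedullin and CGRP, differed by -1.05 and -1.06. Aplnr, the apelin receptor, had 3711 and 3493 in KO-labelled libraries, against 4680 and 4446 in the WT-labelled libraries; the groups do not overlap but lie close together. Its log2 difference was -0.34 (limma adjusted p = 0.0102), and the call was lost with no variance trend (limma adjusted p = 0.0518) and without KO replicate 2 (limma adjusted p = 0.0703). Ramp2, the coreceptor that gives Calcrl its preference for adrenomedullin, had 1526 and 1571 in the KO-labelled libraries and 1786 and 1880 in the WT-labelled libraries (log2 difference -0.24, limma adjusted p = 0.0512). It was called lower in edgeR's quasi-likelihood test (adjusted p = 0.0429).

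Promoter windows, from 250 bases before to 50 bases after an annotated start, were matched in RefSeq (GRCm38.p6) for 27 of the 46 genes, in 34 windows. The 4 shown are those of endothelial genes with the largest falls that had a matched window, so that the sequences can be read beside their values. Where a gene had several windows, the first listed is shown. For Ednrb, Tek and Emcn its start lay inside the gene's RefSeq bounds, and the whole Ednrb window did. Capitals mark the core GGAAG of the ETS family, to which Erg, Fli1 and Ets1 belong, or its reverse complement CTTCC.
Ednrb, chr14:103843652-103843951, - strand: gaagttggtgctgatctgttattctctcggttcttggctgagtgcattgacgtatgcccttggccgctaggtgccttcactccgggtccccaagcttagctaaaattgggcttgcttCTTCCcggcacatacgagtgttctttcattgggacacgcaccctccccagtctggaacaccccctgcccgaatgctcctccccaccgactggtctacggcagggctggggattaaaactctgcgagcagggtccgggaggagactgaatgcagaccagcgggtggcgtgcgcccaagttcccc
Tek, chr4:94739039-94739338, + strand: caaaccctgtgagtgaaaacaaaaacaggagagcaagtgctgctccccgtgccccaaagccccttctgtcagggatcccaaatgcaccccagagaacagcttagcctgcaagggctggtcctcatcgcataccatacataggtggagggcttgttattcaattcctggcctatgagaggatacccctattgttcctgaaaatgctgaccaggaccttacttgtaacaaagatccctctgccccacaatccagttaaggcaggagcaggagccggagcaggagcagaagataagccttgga
Emcn, chr3:137340828-137341127, + strand: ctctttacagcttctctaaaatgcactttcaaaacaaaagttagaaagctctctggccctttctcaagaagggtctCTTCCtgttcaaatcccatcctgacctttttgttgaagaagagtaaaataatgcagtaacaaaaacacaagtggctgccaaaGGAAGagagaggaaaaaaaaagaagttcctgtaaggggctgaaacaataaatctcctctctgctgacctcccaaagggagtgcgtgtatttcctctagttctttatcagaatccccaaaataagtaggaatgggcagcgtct
Ehd3, chr17:73804591-73804890, + strand: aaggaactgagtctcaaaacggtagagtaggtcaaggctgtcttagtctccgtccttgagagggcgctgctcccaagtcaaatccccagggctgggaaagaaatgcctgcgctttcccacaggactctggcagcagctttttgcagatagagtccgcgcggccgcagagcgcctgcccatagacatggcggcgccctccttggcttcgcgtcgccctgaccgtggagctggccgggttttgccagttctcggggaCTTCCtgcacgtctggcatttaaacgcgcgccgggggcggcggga
The ETS core was found in 26 of the 34 windows (76.5%), against 71.4% of 32851 windows of all genes. The SOX core ACAAT or its reverse complement ATTGT was found in 9 windows (26.5%), against 31.0% of all windows, and the hypoxia core ACGTG or CACGT in 4 (11.8%), against 19.6%. Of the windows shown, that of Emcn held 2 ETS cores and 1 SOX core, that of Ehd3 1 ETS core and 1 hypoxia core, that of Ednrb 1 ETS core and 0 of the others, and that of Tek 2 SOX cores and 0 of the others. A match is a run of letters and not a binding site.

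Of the 7 transcription factors of endothelial identity, 6 were called lower, with a median log2 difference of -0.73, smaller in size than the -1.32 of the surface genes and the -1.34 of the receptor kinases. The difference between these groups of genes was not tested. Erg, an ETS factor that keeps junction genes active in mature endothelium, had 711 and 666 normalized reads in KO-labelled libraries, against 2265 and 1907 in the WT-labelled libraries. It was 3.03-fold lower (log2 difference -1.59, limma adjusted p = 7.15e-05). Sox17, a factor of arterial endothelium, had 694 and 680 in KO-labelled libraries, against 1944 and 1716 in the WT-labelled libraries (log2 difference -1.41, limma adjusted p = 7.91e-05). Its relatives Sox18 and Sox7 differed by -0.92 and -0.56. Tal1, which acts in blood and endothelial precursors, differed by -0.73 (limma adjusted p = 0.00804), and leaving out WT replicate 1 removed the call (limma adjusted p = 0.0529). Ets1, an ETS factor that lymphocytes and stromal cells also make, differed by -0.62. Fli1, an ETS factor shared by endothelium and blood cells, had 1188 and 1296 in the KO-labelled libraries and 1553 and 1364 in the WT-labelled libraries and was not called (log2 difference -0.23, limma adjusted p = 0.113). Gja4 and Gja5, which encode the connexins of arterial gap junctions, were both lower, with log2 differences of -1.02 and -0.74.

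Of the 8 ligands, 6 were called lower and 2 higher. Vegfa, the main growth factor of vessels, which in the kidney is made largely by tubule epithelium and podocytes, had 4976 and 4534 normalized reads in KO-labelled libraries, against 15715 and 15846 in the WT-labelled libraries. It was 3.32-fold lower (limma log2 difference -1.73, SE 0.0799, adjusted p = 1.38e-05). Vegfb, a ligand of Flt1, had 1351 and 1060 in the KO-labelled libraries and 1937 and 2438 in the WT-labelled libraries (log2 difference -0.86, limma adjusted p = 0.0035). Pgf, another ligand of Flt1, was scarce, at 60.1 and 42.4 in the KO-labelled libraries and 102 and 110 in the WT-labelled libraries. Its log2 difference of -1.06 (limma adjusted p = 0.0165) was no longer called without KO replicate 2 (limma adjusted p = 0.0692), WT replicate 1 (0.0609) or WT replicate 2 (0.0798). Vegfc, the ligand of Flt4 that drives lymphatic growth, moved the other way. It had 636 and 613 in KO-labelled libraries, against 494 and 372 in the WT-labelled libraries, 1.44-fold higher (log2 difference 0.54, SE 0.164, limma adjusted p = 0.0294). That call was lost with no variance trend (limma adjusted p = 0.0716) and without KO replicate 1 (0.0988), KO replicate 2 (0.0673) or WT replicate 2, where the log2 difference was 0.34 (limma adjusted p = 0.125). Most markers of tubule cells were lower in the same libraries. Of 12 tubule markers 8 were called lower and 1 higher, and their summed counts were 244437 to 339084 in the KO-labelled libraries and 602589 to 642924 in the WT-labelled libraries. Of 6 podocyte markers 3 were called lower and 1 higher, with sums of 11667 to 12140 in the KO-labelled libraries and 16680 to 17868 in the WT-labelled libraries. Podxl, which endothelium also makes, carried that difference: without it, a sum added after the values were seen, the other 5 came to 7723 and 7921 in the KO-labelled libraries and 6705 and 7418 in the WT-labelled libraries. The part of tubule cells and podocytes in the Vegfa difference was not tested.

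Both angiopoietins fell. Angpt2, which endothelial cells store and release and which destabilizes vessels, had the largest fall of the 46. It had 1525 and 1148 normalized reads in KO-labelled libraries, against 11774 and 12453 in the WT-labelled libraries, 9.06-fold lower (log2 difference -3.19, SE 0.133, limma adjusted p = 1.11e-05). The gene lies on chromosome 8, 18690263 to 18741562 (RefSeq, GRCm38). Angpt1, the activating ligand of TIE2, which perivascular cells make, had 434 and 454 in KO-labelled libraries, against 1632 and 1107 in the WT-labelled libraries. The WT-labelled libraries differed from each other but stayed above both KO-labelled ones (log2 difference -1.60, SE 0.184, limma adjusted p = 0.000486). Of 12 markers of pericytes and smooth muscle, 6 were called higher and 3 lower, with summed counts of 59531 to 66299 in the KO-labelled libraries and 32706 to 36559 in the WT-labelled libraries. The lower ones were Abcc9, Rgs5 and Kcnj8, genes of pericytes, at log2 differences of -1.47, -1.38 and -0.54. Other pericyte markers on the list were not called lower. Cspg4 and Mcam were called higher, at 0.54 and 0.42, and Pdgfrb and Notch3 were not called, at 0.14 and -0.03. The contractile genes Cnn1, Acta2, Tagln and Myh11 were called higher, at 3.50, 2.30, 2.16 and 0.56, and Des was not called. The part of these cells in the Angpt1 difference was not tested.

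Apln, which encodes apelin, a peptide of endothelial tip cells, was 4.62-fold lower, where its receptor Aplnr was 1.27-fold lower. It had 379.7 and 493.7 normalized reads in KO-labelled libraries, against 1799 and 2239 in the WT-labelled libraries (log2 difference -2.21, SE 0.165, limma adjusted p = 7.86e-05). Apela, the other ligand of the apelin receptor and not one of the 46, had 3633 and 3423 in KO-labelled libraries, against 11291 and 12093 in the WT-labelled libraries (log2 difference -1.73, limma adjusted p = 1.38e-05). Both ligands were thus several-fold lower beside an Aplnr level at 78.9% of the WT-labelled mean. Exons of Apela overlap those of Gm45886 on the same strand, so the reads of Apela can be shared.

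**Figure D3:**
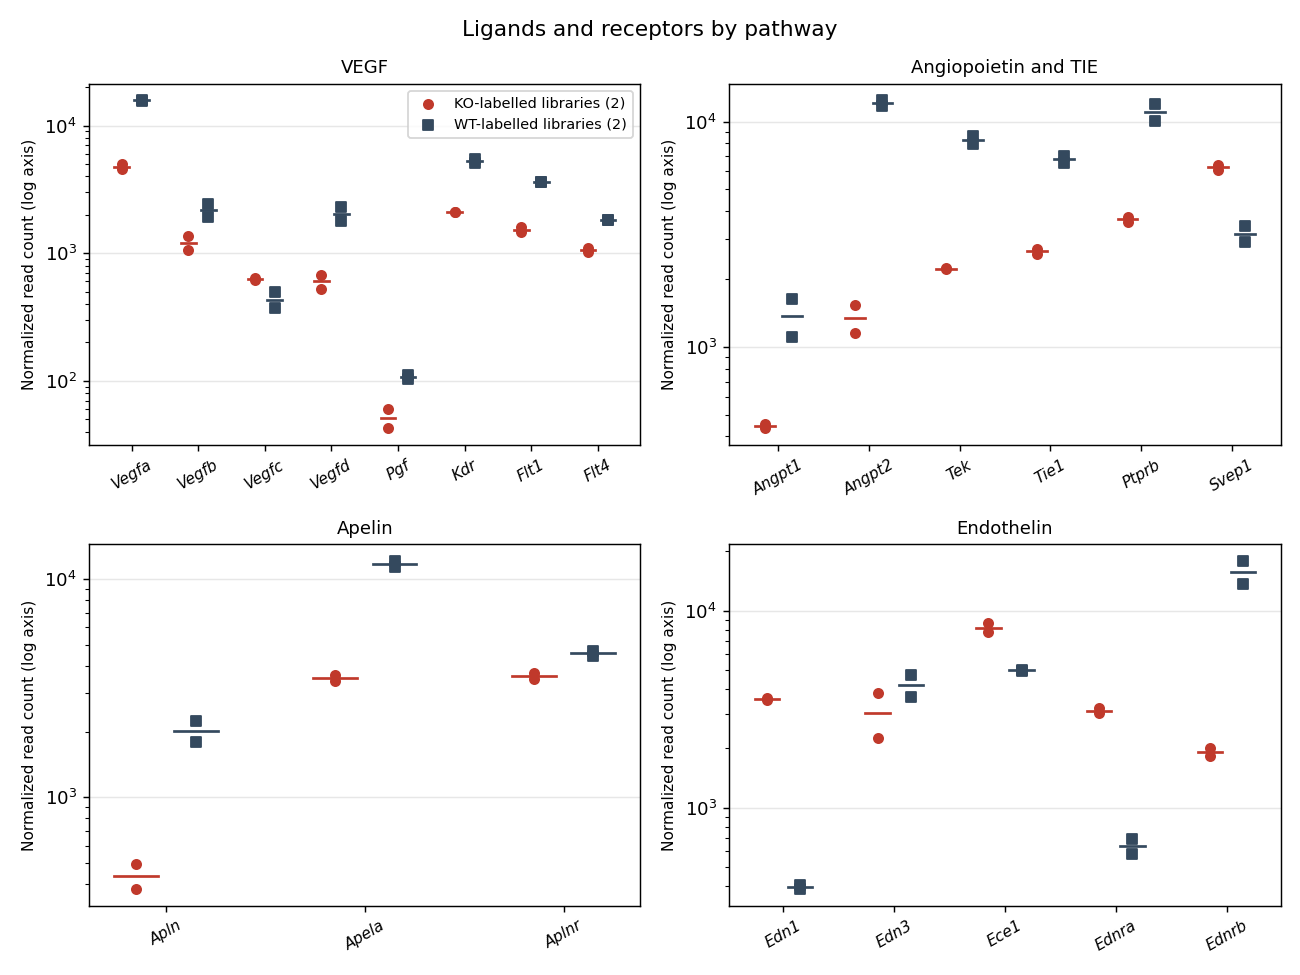
Normalized read counts (log axis) of ligands and receptors of the VEGF, angiopoietin, apelin and endothelin pathways in each library; lines are group means and points are the 2 libraries of each group. Angpt2, Apln and Ednrb are lower and Edn1 and Ednra higher in the KO-labelled libraries, with no overlap between groups.

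The endothelin genes changed in opposite directions. Edn1, which encodes the vasoconstrictor endothelin-1, made by endothelial cells and by collecting duct cells, had 3582 and 3517 normalized reads in KO-labelled libraries, against 386 and 406 in the WT-labelled libraries. It was 8.97-fold higher (log2 difference 3.16, SE 0.0936, limma adjusted p = 3.97e-06). Its locus is chromosome 13, 42301476 to 42307990 (RefSeq, GRCm38). Ednra, the endothelin receptor A of smooth muscle and pericytes and not one of the 46, had 3015 and 3201 in KO-labelled libraries, against 579 and 693 in the WT-labelled libraries (log2 difference 2.29, limma adjusted p = 1.72e-05). Ece1, the enzyme that cuts the endothelin precursor to its active form, differed by 0.72 (limma adjusted p = 0.000434). Edn3, endothelin-3, had 2245 and 3803 in the KO-labelled libraries and 3660 and 4691 in the WT-labelled libraries, which overlap, and was not called (log2 difference -0.50, limma adjusted p = 0.116). Per kilobase of exon, the level of Ednra was 857 normalized reads in the KO-labelled mean and 175 in the WT-labelled mean. The level of Ednrb per kilobase was 450.3 in the KO-labelled mean and 3692 in the WT-labelled mean, so the order of the receptors differed between the groups.

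Besides Edn1 and Vegfc, the exceptions to the general fall were Selp and Mmrn1, called higher, and Sele, which lay higher but was not called. Selp, the P-selectin that endothelial cells and platelets store and expose to capture leukocytes, had 249.9 and 215.7 normalized reads in KO-labelled libraries, against 16.7 and 5.96 in the WT-labelled libraries. The groups lay far apart at a low level, 20.5-fold (log2 difference 4.39, SE 0.457, limma adjusted p = 0.000319). Its locus is chromosome 1, 164115264 to 164150026 (RefSeq, GRCm38). Sele, the E-selectin of inflamed endothelium, stayed scarce, at 26.8 and 28.3 in the KO-labelled libraries and 17.7 and 15.9 in the WT-labelled libraries. It was not called (log2 difference 0.68, limma adjusted p = 0.158), although it was with no variance trend (limma adjusted p = 0.0135). Mmrn1, a multimerin of platelets and of lymphatic endothelium, had 203.8 and 264.7 in KO-labelled libraries, against 128 and 86.5 in the WT-labelled libraries (log2 difference 1.13, SE 0.258, limma adjusted p = 0.00971).

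Leukocyte markers were mostly higher in the same libraries, and platelet markers were mixed. Of the 6 platelet markers, 4 were tested, and Pf4 and Ppbp were called higher, at log2 differences of 1.90 and 1.88, while Itga2b and Gp1ba were not called. Gp9 and Treml1 were too low in both groups to be tested. Gp9 had 1.07 and 1.88 normalized reads in the KO-labelled libraries and 0.985 and 2.98 in the WT-labelled libraries, and Treml1 had at most 5.36 in any library. The platelet sums were 803 to 810 in the KO-labelled libraries and 376 to 404 in the WT-labelled libraries. Without Pf4, a sum added after the values were seen, they were 275.7 and 227.1 in the KO-labelled libraries and 229.5 and 253.5 in the WT-labelled libraries, which overlap. Of 12 leukocyte markers, 11 were tested and 9 called higher, with a median log2 difference of 2.12 and sums of 45538 to 45659 in the KO-labelled libraries and 9967 to 10128 in the WT-labelled libraries. The T and B cell genes Cd3e, Cd3g and Cd79a had at most 30.1 in any library. Of 8 other genes of leukocyte adhesion, 4 were called higher and 2 lower. Vcam1 and Icam1, which hold leukocytes on endothelium but are made by other cells too, differed by 2.92 and 2.28, and the junction proteins Jam2 and Jam3 by -0.998 and -0.60. The part of blood cells in the Selp and Mmrn1 differences was not tested.

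**Figure D4:**
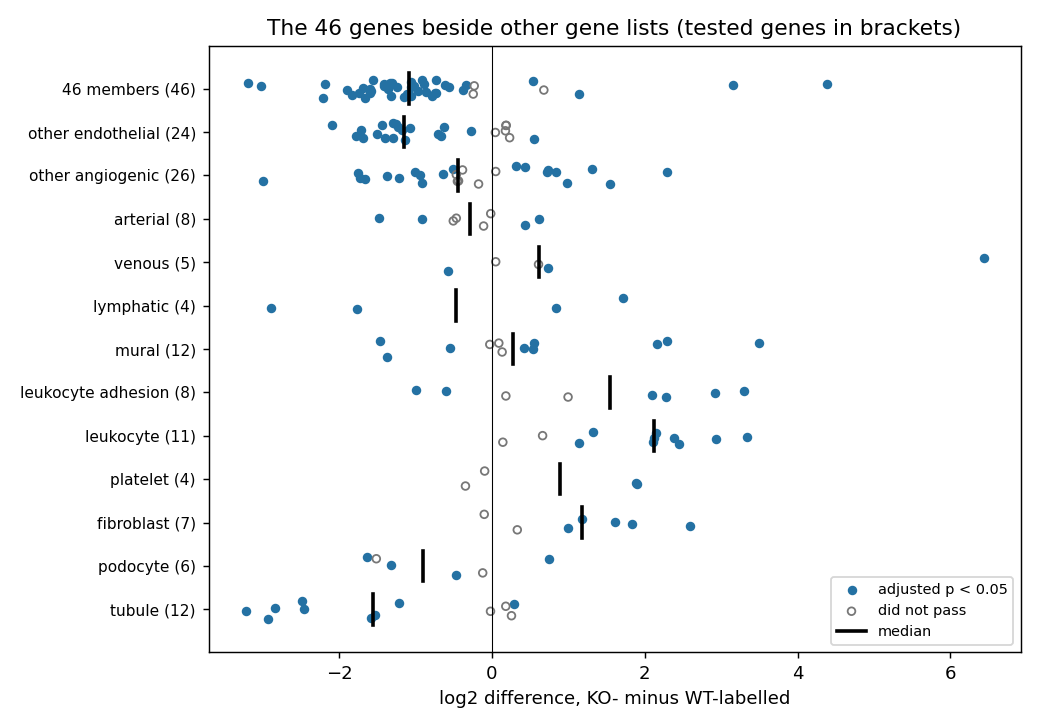
Log2 difference of the KO-labelled over the WT-labelled libraries for each tested gene of the 46 and of the other gene lists, with the median of each list as a line. Medians were -1.08 for the 46, -1.15 for other endothelial genes, 2.12 for leukocytes, 1.18 for fibroblasts and -1.56 for tubule cells.

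The promoters of Edn1 and Selp, the genes with the largest rises, were added after their values were seen, for reading beside the promoters of the genes that fell. Capitals again mark the ETS core.
Edn1, chr13:42301226-42301525, + strand: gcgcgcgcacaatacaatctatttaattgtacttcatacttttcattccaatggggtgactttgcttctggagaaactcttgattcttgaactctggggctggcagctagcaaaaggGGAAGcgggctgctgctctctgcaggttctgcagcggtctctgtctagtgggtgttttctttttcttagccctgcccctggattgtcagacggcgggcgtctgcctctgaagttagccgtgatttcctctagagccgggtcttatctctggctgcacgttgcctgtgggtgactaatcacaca
Selp, chr1:164115014-164115313, + strand: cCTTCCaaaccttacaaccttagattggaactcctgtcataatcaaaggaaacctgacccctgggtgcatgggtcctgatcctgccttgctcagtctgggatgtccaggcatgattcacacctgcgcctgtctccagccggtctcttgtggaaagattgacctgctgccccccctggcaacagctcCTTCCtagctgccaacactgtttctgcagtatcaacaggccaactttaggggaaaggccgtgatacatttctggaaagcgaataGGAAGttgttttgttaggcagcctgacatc
That of Edn1 held 1 ETS core, 4 SOX cores and 1 hypoxia core, and that of Selp held 3 ETS cores and 0 of the other motifs.

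Levels can be compared between genes only per length, here as normalized reads per kilobase of exon. Plvap was the highest of the 46 in both groups, at 3060 in the KO-labelled mean and 13861 in the WT-labelled mean. In the KO-labelled mean it was followed by Cd34, Edn1 and Vegfa, at 1679, 1660 and 1350. In the WT-labelled mean the next were Vegfa, Cd34 and Ednrb, at 4479, 4179 and 3692. Edn1 stood at rank 3 of 46 in the KO-labelled mean and at rank 38 in the WT-labelled mean. Angpt2 stood at rank 24 in the KO-labelled mean and rank 6 in the WT-labelled mean, Ednrb at ranks 21 and 4 in the same order, and Aplnr at ranks 10 and 20. The lowest levels were those of Sele and Pgf in the KO-labelled mean, at 9.46 and 24.6, and of Selp and Sele in the WT-labelled mean, at 3.30 and 5.77.

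Endothelial genes outside the 46, also chosen with earlier results of these data known, were mostly lower as well. Of 24 such genes, 18 were called lower, 1, Procr, higher and 5 not called, with a median log2 difference of -1.15, and their summed counts were 42189 to 43723 in the KO-labelled libraries and 88973 to 90772 in the WT-labelled libraries. Adgrf5, Ushbp1, Arhgef15 and Robo4, the 4 with the smallest adjusted p, differed by -1.78, -2.09, -1.68 and -1.43. Procr differed by 0.55. The 5 not called did not fall either: Ecscr, Tspan7, Acvrl1, Nostrin and Thbd differed by 0.23, 0.19, 0.18, 0.18 and 0.05. The mean log2 difference of the 24 was -0.87. Taking each library's mean over the 24 as its baseline gives the level of a gene relative to other endothelial genes, a scale that takes that mean away from every difference. On that scale 5.45% of all tested genes were called lower and 75.0% higher.

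On the relative scale, 23 of the 46 were called lower, 10 higher and 13 were not called. With the median of the 24 as baseline, chosen after the data were seen, the counts were 19 lower and 14 higher. Angpt2, Ednrb, Apln and Plvap were the lowest, with relative log2 differences of -2.32, -2.15, -1.34 and -1.31, followed by Tek at -1.03, Emcn at -0.95 and Vegfa at -0.86. Pecam1 and Cdh5 were lower by smaller amounts, at -0.28 and -0.23 (limma adjusted p = 0.00927 and 0.0254). The size of these falls depends on the baseline. The mean baseline takes away -0.87 and the median baseline -1.08. The latter is close to the plain log2 differences of Pecam1 and Cdh5, -1.15 and -1.10. The receptors Flt4, S1pr1 and Calcrl, the factors Sox7, Sox18 and Tal1, both connexins, the surface genes Egfl7, Clec14a and Cd93 and the ligands Vegfb and Pgf were not called on that scale. Cldn5, Aplnr, Ramp2, Fli1 and Ets1 were higher relative to other endothelial genes, at 0.49, 0.53, 0.63, 0.64 and 0.25, while their own normalized counts were lower or not called. Selp, Edn1, Mmrn1, Sele and Vegfc were higher by 5.26, 4.03, 2.01, 1.55 and 1.41.

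**Figure D5:**
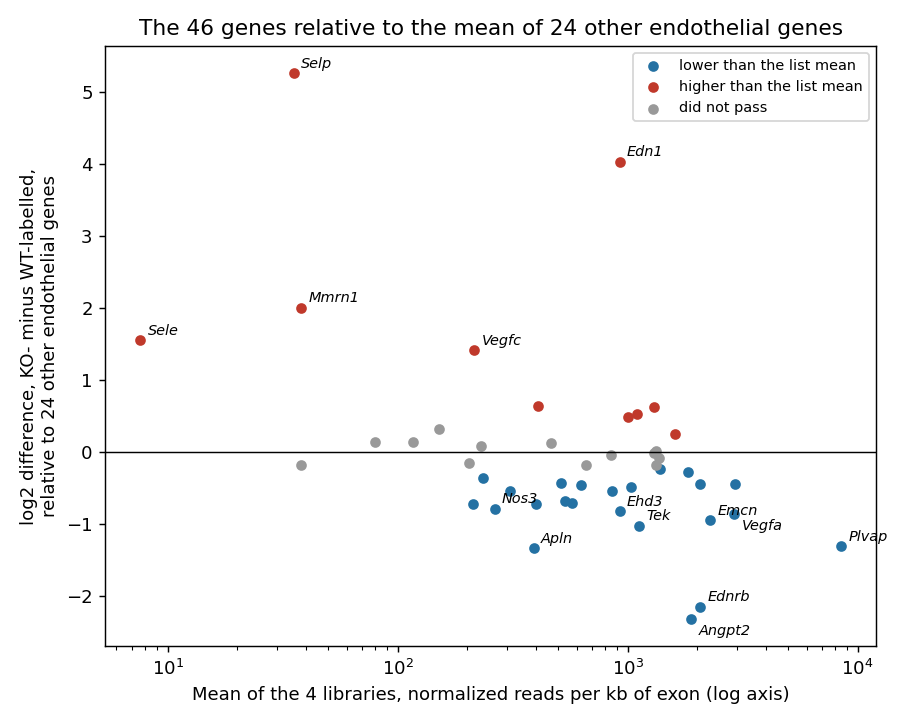
Log2 difference relative to the mean of 24 other endothelial genes (vertical axis) against the mean normalized reads per kilobase of exon over the 4 libraries (log axis) for the 46 genes. Angpt2 at -2.32 and Ednrb at -2.15 lie lowest and Selp at 5.26 and Edn1 at 4.03 highest.

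The wider angiogenic pathway, 26 genes outside the 46, did not move as a block, with 9 called higher, 11 lower and 6 not called and a median log2 difference of -0.44. Over all tested genes, 26.3% were called higher and 24.9% lower. The lower genes included Esm1, a tip cell proteoglycan, at -2.99, Vegfd, a ligand of Flt4, at -1.75, Notch4, an endothelial Notch receptor, at -1.66, Cxcl12, a chemokine, at -1.36, and its scavenger receptor Ackr3, at -0.51. The Notch ligand Dll4 and the semaphorin receptor Plxnd1 differed by -0.91 and -0.94. The oxygen-sensing factors Epas1 and Hif1a, which drive Vegfa under hypoxia, differed by -1.21 and -0.998, and Egln3, a hydroxylase of that pathway, by -0.64. Only RNA was measured, not the protein or activity of Epas1 and Hif1a, and their part in the Vegfa difference was not tested. The higher genes, besides Ednra and Ece1, were the angiogenesis inhibitors Thbs2 and Thbs1, at 1.55 and 0.84, Pdgfb, which recruits pericytes, at 1.32, Svep1, a matrix protein, at 0.99, the VEGF coreceptors Nrp2 and Nrp1, at 0.74 and 0.31, and Efnb2, an arterial ephrin, at 0.44. Adm, Adm2, Angpt4, Angptl4, Bmx and Ephb4 were not called. Of 7 fibroblast genes 5 were called higher and 0 lower, led by Col1a1 at 2.59, with sums of 461542 to 535289 in the KO-labelled libraries and 183197 to 189480 in the WT-labelled libraries. The part of stromal cells in the rises of Thbs1, Thbs2, Svep1 and Ednra was not tested.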

How the data were processed

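Total RNA of the medulla of 2 Actr3 KO and 2 Actr3 WT animals was sequenced, per the labels' protocols. The authors deposited signal values, 1 for each gene in each library, in which read counts had been divided by size factors. The values themselves show it: divided by steps of 1.07, 0.942, 0.985 and 0.994, 100% were whole within 0.001 of a read (in proportion above 1000 reads). For WT replicate 2 only 0.0938% of values were whole before division. Per the submitters' processing notes, the tools were DESeq2 2.11.40.7, featureCounts 2.0.1, HISAT2 2.2.1 and fastp 0.20.1, and the builds mm10 and GRCm38. The sources used here do not give the annotation, the strand setting or the handling of multi-mapping reads.

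Symbols came from RefSeq (25275 of 27179 Entrez identifiers matched) and exon lengths from the GENCODE basic annotation. In R 4.3.3, limma 3.58.1 with trended prior variance was run two-sided on log2(value + 1) for 16253 genes with a mean of at least 10, with Benjamini-Hochberg adjustment; 10926 genes were not tested. Residual degrees of freedom were 2 per gene, and 6.96 after pooling. The relative scale subtracts each library's mean log2 value over 24 other endothelial genes. On recovered reads, edgeR 4.0.16 and DESeq2 1.42.0 were alternatives, with other pseudocounts (0.5 and 5), filters (none and 50), quantile scaling, no trend, robust fitting, a replicate block and leaving out each library, where the remaining library takes its spread from the other group. Recovery of known changes was tested on simulated data. Without molecular identifiers, reads are not separate molecules, so intervals cover counting error only.

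The 46 genes, 12 further lists of 126 genes and the tests were chosen with earlier results of these data known. All 46 genes are accounted for. Every called gene of the angiogenic list is named. From each list up to 4 tested genes with the smallest adjusted p were also to be named. That rule was not followed in full for the venous, leukocyte, leukocyte adhesion, podocyte, tubule and fibroblast lists. Other genes, such as Kcnj8, Acta2, Cspg4, Jam3, Edn3 and Cd3e, were named after their values were seen.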

Additional observations from a re-analysis of the deposited data

How the results depend on the processing

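Of the 46 genes, 37 to 40 were called lower and 3 or 4 higher under all alternatives (edgeR 40 and 4, DESeq2 39 and 4), and on the relative scale 19 to 24 were lower and 9 to 14 higher. The median log2 difference of the 46 ran from -1.17 to -1.08 when 1 library was left out. Replicate numbers did not pair the libraries (r = -0.0564 between deviations of same-numbered libraries, over 16253 genes), and with the replicate number as a block 39 were lower and 4 higher, and 3619 and 3810 over the whole table. On the relative scale, values near 0 changed sign. With 1 library left out, Flt4 ran from -0.0042 to 0.18, Sox18 from -0.15 to 0.061, Vegfb from -0.18 to 0.20, Pgf from -0.41 to 0.030 and Cd93 from -0.054 to 0.016. With the median baseline, added after seeing the data, Sox18 was 0.17, Pgf 0.024, Egfl7 0.12, S1pr1 0.031, Gja4 0.063 and Calcrl 0.028, and Cd93 became called at 0.19 (limma adjusted p = 0.0406). With quantile scaling Cd93 was 0.024. The cause was not tested. With 2 animals per group, p-values lean on the spread pooled across genes, and at 5.96 to 28.3 normalized reads Selp in WT-labelled libraries and Sele in all 4 are limited by depth.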

Other observations

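Lists of arterial, venous and lymphatic genes held genes called in both directions. Of 8 genes of arteries and descending vasa recta, 2 were called higher, 2 lower and 4 not, with a median log2 difference of -0.29. These counts are near the shares over all tested genes, 26.3% higher and 24.9% lower, and do not set the arterial list apart. Slc14a1, the urea transporter of descending vasa recta, had 1615 and 1799 normalized reads in KO-labelled libraries, against 4824 and 4642 in the WT-labelled libraries (log2 difference -1.47, limma adjusted p = 3.33e-05), while Sema3g, a semaphorin of arterial endothelium, differed by 0.61 (limma adjusted p = 0.00378).

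Of 5 venous genes, 2 were higher, 1 lower and 2 not called, beside 26.3% higher and 24.9% lower over all tested genes. Nr2f2, a factor of venous identity that stromal cells also make, differed by -0.57 (limma adjusted p = 0.00577). Ackr1, the chemokine-binding receptor of venules and red cells, had 472 reads over the KO-labelled libraries, at 134.1 and 326.9 normalized reads, and 3 reads over the WT-labelled libraries, a ratio of 165 with a counting interval of 56.0 to 801 (95%). Exons of Ackr1 overlap those of Cadm3, so its reads can be shared. Of 5 lymphatic genes, 4 were tested. Lyve1 and Pdpn were higher, at 0.84 and 1.72, and Prox1 and Reln lower, at -2.89 and -1.76, and each of Lyve1, Pdpn and Prox1 is also made by other cells of the kidney.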
